A study of Mus musculus with 4 samples.

Results

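The genes described here are 10 regulators of the G1 phase of the cell cycle, namely the D-type cyclins Ccnd1, Ccnd2 and Ccnd3, the E-type cyclins Ccne1 and Ccne2, the kinases Cdk4 and Cdk6, and the inhibitors Cdkn1a, Cdkn1b and Cdkn2a. They were taken by name as a fixed list. All 10 were found among the 37620 genes counted, and all 10 were among the 15462 genes that the authors kept after a filter on low expression. RNA was sequenced from 4 cultures of R1 mouse embryonic stem cells (ESCs) of strain 129/Sv, to ask how WT cells and cells without Cripto (Cripto KO) differ as ESCs are turned towards epiblast stem cells (EpiSCs). WT and Cripto KO cells kept in serum/LIF made up the first pair of groups, labelled ESC, and the same lines after 6 days in F/A the second pair, labelled EpiSC. F/A cells had been plated sparsely in serum-free N2B27 medium with Activin A at 20 ng per ml and basic FGF (bFGF), so the medium, the serum, the LIF and the plating changed together and cannot be told apart. Each group was 1 library. The study used 2 Cripto KO clones, and the labels do not name the clone sequenced, so genotype and clone cannot be told apart either.

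Cells in G1 commit to replicating their DNA when D-type cyclins with CDK4 or CDK6, and then E-type cyclins with CDK2, phosphorylate the retinoblastoma family of pocket proteins and so release E2F transcription factors. The products of Cdkn1a (p21) and Cdkn1b (p27) bind cyclin-CDK complexes, whereas the p16 product of Cdkn2a binds the CDK4 and CDK6 kinases themselves and its Arf product stabilizes p53. Naive mouse ESCs are known for a short G1 phase with high cyclin E and little D-type cyclin activity, and D-type cyclins are targets of growth factor signalling through ERK, Wnt and Myc.

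Normalized values are the full quantile-normalized counts of the authors, in units of counts, and a log2 change is the log2 ratio of 2 such values. A gene was said to be past the threshold when it differed by at least 2-fold, the fold used in the study. With 1 library per group no replicate error exists and no test between conditions was possible, so each ratio is given with the exact (Clopper-Pearson) 95% interval of the ratio of raw counts per library total, in brackets. These intervals cover counting error only, and every difference is a difference between libraries of single cultures. Comparisons that use the same library share its error.

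The libraries held between 15230856 and 17315442 counts on genes. The F/A Cripto KO library had odd counts for 3 of its 18700 detected genes (0.0160%), against 53.1% to 53.6% in the other libraries. Its counts were therefore halved for every interval, and halving them before normalization moved no log2 value of the 10 genes by more than 0.01. Tdgf1, the gene of Cripto, had 18714 (WT) and 945 (Cripto KO) raw counts in serum/LIF, and 1572 (WT) and 86 (Cripto KO) in F/A. In normalized values of Tdgf1 the Cripto KO libraries stood at 5.72% of WT in serum/LIF and 5.62% in F/A. The 8 naive ESC markers found summed to 3619 and 3226 counts per library total of 1000000 (CPM) in serum/LIF WT and Cripto KO and to 29.9 and 46.2 CPM in F/A. The 10 primed markers summed to 197 and 214 CPM in WT and Cripto KO under serum/LIF, and 1667 and 936 in F/A. F/A Cripto KO thus had less of the markers of its EpiSC label than F/A WT, and its summed mesoderm markers (363 against 211 CPM), trophoblast markers (250 against 218), primitive endoderm markers (182 against 126) and fibroblast markers (188 against 72.0) were higher. The trophoblast markers went both ways, since of the 7 that passed the filter 3 were past 2-fold higher (Cdx2, Hand1 and Plac1) and 2 lower (Eomes and Ascl2), with a median log2 ratio of 0.06. Of the 4 primitive endoderm markers that passed, 0 were past 2-fold and 2 were below WT. Of the 8 mesoderm markers, 3 were past 2-fold higher and 2 were below WT. Of the 5 fibroblast markers that passed, 2 were past 2-fold higher and 0 were below WT. The naive markers at or under the detection floor of 3 counts (6 in F/A Cripto KO) were 2 of 8 in WT and 3 of 8 in Cripto KO under F/A. The part of these other cell types in the values below was not tested, and in RNA of whole cultures fewer cells that express a gene and less of its RNA per cell cannot be told apart.

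Promoter sequence was at hand for 7 of the 10 genes, as 10 windows of 250 bases before an annotated start site (RefSeq, GRCm38.p6). The promoters of Ccnd1, Ccnd2 and Ccne2 were not analysed here. Printed here are those of Ccne1, the member that fell past 2-fold in both genotypes, of Cdk4, the kinase with most motif matches, and both start sites of Cdkn2a, whose products differ. All are written 5′ to 3′ on the strand of the gene, from 250 bases before the start and ending at the start or where an exon of the gene begins earlier in the annotation of the deposited tables' build. Capitals mark GC boxes (GGGCGG on either strand) in Ccne1, E-boxes (CACGTG) in Cdk4, and GC boxes and the E2F motif TTTCCCGC in Cdkn2a.
Ccne1, chr7:38107535-38107740, minus strand: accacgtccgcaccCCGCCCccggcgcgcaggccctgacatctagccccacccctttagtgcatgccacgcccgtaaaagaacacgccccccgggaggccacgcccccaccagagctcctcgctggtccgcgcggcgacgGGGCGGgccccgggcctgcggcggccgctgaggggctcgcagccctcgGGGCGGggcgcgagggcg
Cdk4, chr10:127063285-127063533, plus strand: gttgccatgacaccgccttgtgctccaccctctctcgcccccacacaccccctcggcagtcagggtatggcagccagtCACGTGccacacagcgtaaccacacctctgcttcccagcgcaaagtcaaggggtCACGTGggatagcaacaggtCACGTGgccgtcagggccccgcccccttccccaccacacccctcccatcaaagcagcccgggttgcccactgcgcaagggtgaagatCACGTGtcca
Cdkn2a, inner start, chr4:89282193-89282442, minus strand: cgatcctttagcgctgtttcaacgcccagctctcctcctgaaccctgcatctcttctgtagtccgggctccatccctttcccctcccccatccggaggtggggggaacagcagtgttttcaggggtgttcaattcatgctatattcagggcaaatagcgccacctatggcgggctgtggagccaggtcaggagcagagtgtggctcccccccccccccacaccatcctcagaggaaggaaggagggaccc
Cdkn2a, outer start, chr4:89294654-89294869, minus strand: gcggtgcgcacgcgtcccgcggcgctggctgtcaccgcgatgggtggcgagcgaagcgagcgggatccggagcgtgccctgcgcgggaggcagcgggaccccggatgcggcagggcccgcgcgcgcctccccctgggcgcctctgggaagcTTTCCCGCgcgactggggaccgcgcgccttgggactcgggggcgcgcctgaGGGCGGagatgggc

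In the whole 250-base windows, both strands searched, Ccne1 held 4 GC boxes, at -236, -110, -62 and -49 from the start site, the last of them reaching into the exon and so not printed whole. Cdk4 held 4 E-boxes, at -172, -118, -98 and -11. The outer Cdkn2a window held the E2F motif at -99 and GC boxes at -48 and -14, whereas the inner window, 12427 bases away, held none of the 6 motifs searched. Of all 32851 promoters in the same table, 32.7% held a GC box, 6.02% an E-box of this form and 1.86% an E2F motif of the forms TTTCCCGC, TTTCGCGC, TTTGCCGC or TTTGGCGC. The TCF motif (CTTTGAT or CTTTGAA, in 7.48% of all promoters) was found in Cdk4 alone among the 10 windows, and the STAT motif TTCNNNGAA (7.02%) and the AP-1 motif TGANTCA (6.75%) in none of them. All 10 windows were richer in G and C than the median of all promoters (54.0% to 78.4% against 52.4%). A match of letters is a description and not a site.

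Of the 10 genes, the D-type cyclin gene Ccnd2 had the widest range of levels, and in WT it went another way than Ccnd1 and Ccnd3. Ccnd2 was low in serum/LIF and was among the most strongly raised genes in F/A, in both genotypes. Ccnd1 and Ccnd3 stood below their serum/LIF level in F/A in WT, and in Cripto KO they did not. Ccnd1 (ENSMUSG00000070348, NCBIM37 chr7:152115836-152125774, minus strand), Ccnd2 (ENSMUSG00000000184, chr6:127075797-127101066, minus) and Ccnd3 (ENSMUSG00000034165, chr17:47642000-47736632, plus) code for the partners that activate CDK4 and CDK6.

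Ccnd2 had 164 (WT) and 218 (Cripto KO) raw counts in serum/LIF, and 7904 (WT) and 8018 (Cripto KO) in F/A, which the normalization turned into 153, 229.75, 8725 and 8025.75. The F/A libraries lay far above the serum/LIF libraries, with no value in between. The normalized value was 57.0-fold higher in F/A in WT (counts 46.9 to 64.4), a log2 change of 5.83, and 34.9-fold higher in Cripto KO (counts 33.1 to 43.7), a log2 change of 5.13. Only 1.48% and 2.28% of all genes rose by as much in the respective comparison. In serum/LIF the Cripto KO value was above that of WT by a log2 ratio of 0.59 (ratio of counts 1.42, 1.15 to 1.74), on 164 and 218 counts. Between genotypes in F/A no difference was resolved: the normalized ratio was 0.920, but the ratio per library total was 0.982 (0.945 to 1.02), the log2 value ran from -0.12 to 0.16 over the scalings tried, and the normalized ratio lay outside its own counting interval.

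Ccnd1 had 2438 (WT) and 1878 (Cripto KO) raw counts in serum/LIF, and 1365 (WT) and 2846 (Cripto KO) in F/A, or normalized values of 2325.25, 1853.25, 1395 and 2963.5. The order of the libraries was F/A Cripto KO, serum/LIF WT, serum/LIF Cripto KO and F/A WT, and each neighbour differed from the next beyond counting error. WT went from serum/LIF to F/A 1.67-fold lower (ratio of counts 0.637, 0.595 to 0.680) and Cripto KO with a ratio of 1.60 (1.46 to 1.68). In F/A the Cripto KO value was 2.12 times that of WT (1.87 to 2.18), a log2 ratio of 1.09 that stayed between 1.01 and 1.09 over the scalings tried. In serum/LIF the ratio was 0.797 (0.772 to 0.872), on the other side of 1.

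Ccnd3 had 4042 (WT) and 3038 (Cripto KO) raw counts in serum/LIF, and 1547 (WT) and 2960 (Cripto KO) in F/A, or normalized values of 3824.75, 3001.25, 1571 and 3068.5. As for Ccnd1, F/A WT was the lowest library. The WT value fell to 0.411 of that in serum/LIF (counts 0.410 to 0.461), past 2-fold, while that of Cripto KO stood at 1.02 (0.945 to 1.07), where counting error includes no change. The ratio of Cripto KO to WT was 1.95 in F/A (1.72 to 1.99), just short of 2-fold, and 0.785 in serum/LIF (0.763 to 0.839).

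**Figure D1:**
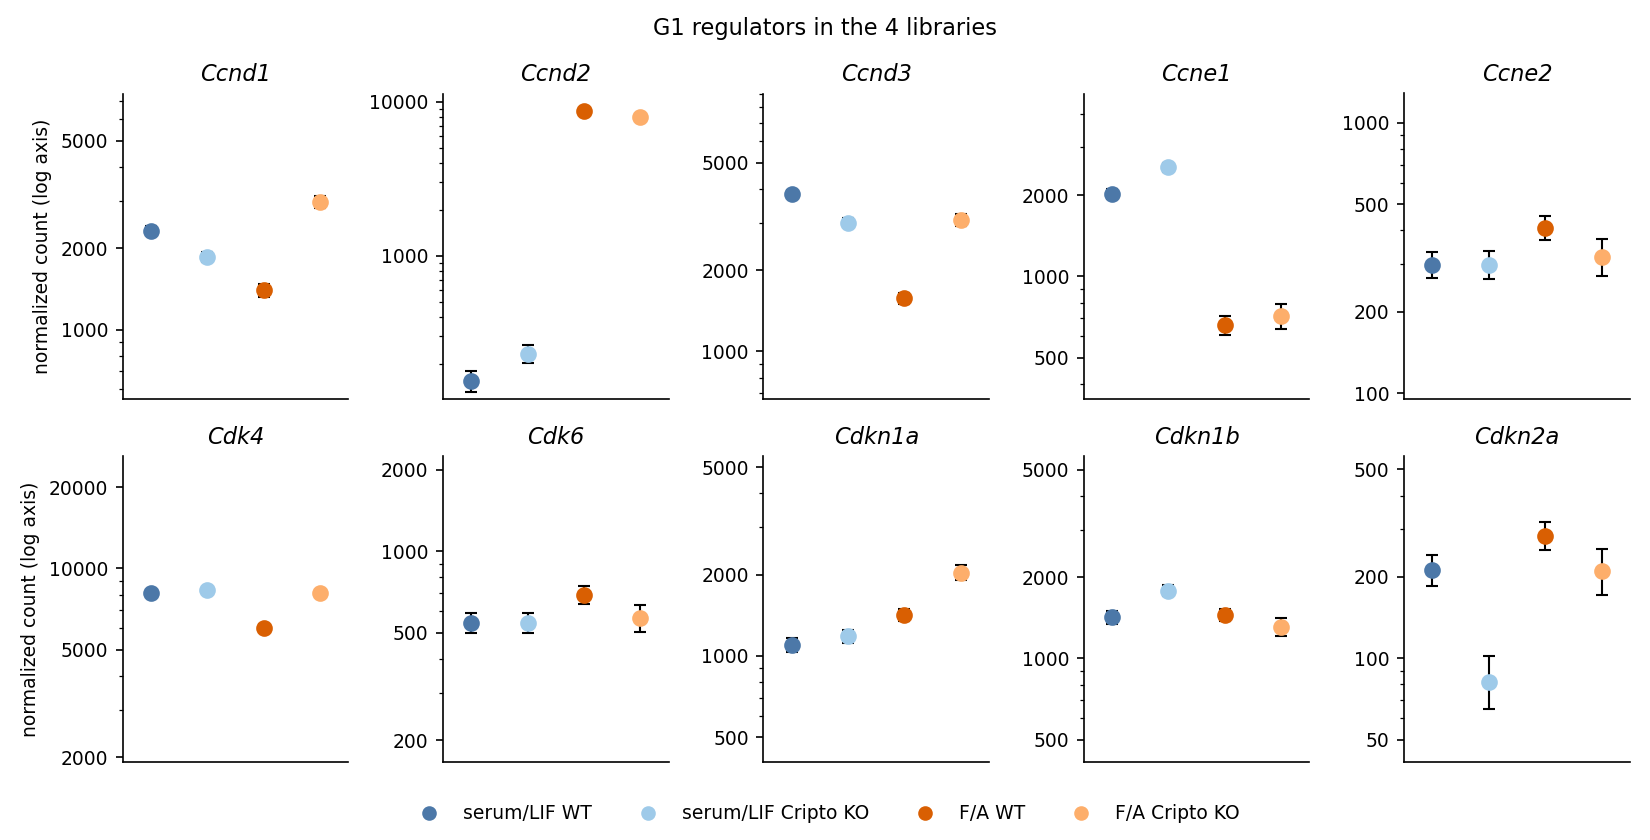
Normalized count of each of the 10 genes (log axis, its range set per gene) in the 4 libraries, with the exact 95% interval of the raw count scaled to it (counting error only). Ccnd2 runs from 153 to 8725, and F/A WT is the lowest library for Ccnd1, Ccnd3 and Cdk4.

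Per transcript length, the D-type cyclin RNA of serum/LIF cells was nearly all Ccnd1 and Ccnd3. Divided by the median length of the annotated transcripts, Ccnd3 made up 62.3% and Ccnd1 36.8% of the summed level in serum/LIF WT, and 61.5% and 36.8% in serum/LIF Cripto KO. Ccnd2 held 0.894% and 1.69%. In F/A WT Ccnd2 became the leading member with 51.7%, beside 26.0% Ccnd3 and 22.4% Ccnd1. In F/A Cripto KO these median lengths gave 32.6% Ccnd2, 34.8% Ccnd3 and 32.6% Ccnd1. The ratio of Ccnd2 to Ccnd3 in F/A, per length and from raw counts, was 1.83 in WT (1.73 to 1.94) and 0.971 in Cripto KO (0.915 to 1.03).

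The summed level per kb of median length was 3003 (WT) and 2389 (Cripto KO) normalized counts in serum/LIF, and 2962 (WT) and 4317 (Cripto KO) in F/A. F/A Cripto KO was the highest library and serum/LIF Cripto KO the lowest, with the longest transcript as well (3652 and 1956), while the order of the WT libraries turned with that length (2459 in serum/LIF and 2647 in F/A). With the longest transcript, Ccnd2 made up 57.8% (WT) and 38.5% (Cripto KO) in F/A, and in F/A Cripto KO Ccnd3 made up 39.8% and Ccnd1 21.7%, so that the near equality of the 3 genes there held with the median length and not with the longest.

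**Figure D2:**
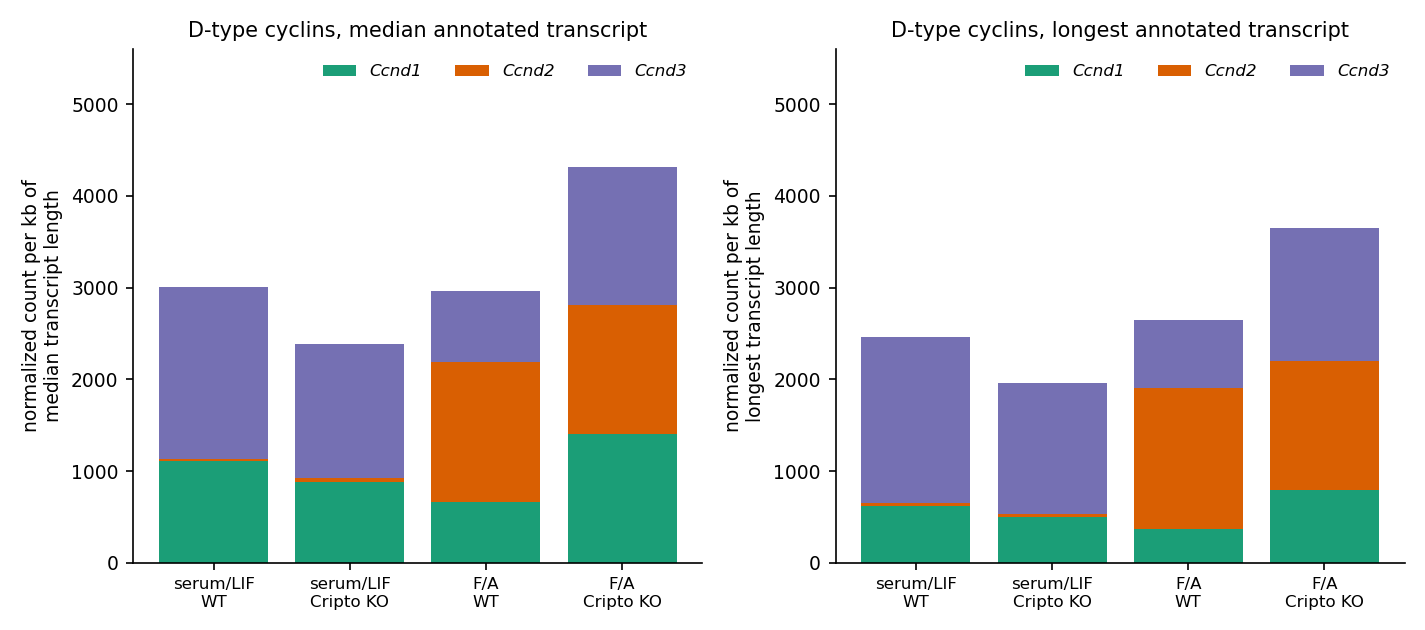
Stacked bars of Ccnd1, Ccnd2 and Ccnd3 in each library, as normalized counts per kb of the median (left) or longest (right) annotated transcript. The bars of Ccnd2 are thin in serum/LIF (0.894% and 1.69% of the sum on the left) and wide in F/A (51.7% in WT, 32.6% in Cripto KO).

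The E-type cyclins went their own ways. Ccne1 (ENSMUSG00000002068, chr7:38883003-38892553, minus strand) and Ccne2 (ENSMUSG00000028212, chr4:11118498-11131926, plus) code for the partners of CDK2 at the entry into S phase. Ccne1 had 2128 (WT) and 2577 (Cripto KO) raw counts in serum/LIF, and 643 (WT) and 708 (Cripto KO) in F/A, or normalized values of 2021.25, 2535.62, 658.75 and 712.75. Both F/A libraries were far below both serum/LIF libraries. Ccne1 fell past 2-fold in both genotypes, by 1.62 on the log2 scale in WT (ratio 0.326, counts 0.314 to 0.375) and by 1.83 in Cripto KO (0.281, 0.253 to 0.317). The ratio of Cripto KO to WT was 1.25 in serum/LIF (1.22 to 1.37), and 1.08 in F/A, where counting error includes no difference (0.933 to 1.22).

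Ccne2 had 320 (WT) and 286 (Cripto KO) raw counts in serum/LIF, and 392 (WT) and 322 (Cripto KO) in F/A, or normalized values of 299.25, 299.25, 408.5 and 319.75. Only F/A WT stood above the others beyond counting error. Its ratio of F/A to serum/LIF was 1.37 in WT (1.20 to 1.62) and 1.07 in Cripto KO (0.953 to 1.42), neither past 2-fold. The ratio of Ccne1 to Ccne2 per median transcript length was 5.67 (WT) and 7.68 (Cripto KO) in serum/LIF, and 1.40 (WT) and 1.87 (Cripto KO) in F/A. With the longest transcripts these ratios were 9.99, 13.5, 2.47 and 3.30, so their size depended on the length used and their order did not.

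Neither kinase reached 2-fold in any comparison. Cdk4 (ENSMUSG00000006728, chr10:126500590-126504976, plus strand) and Cdk6 (ENSMUSG00000040274, chr5:3343893-3523218, plus) code for the catalytic partners of the D-type cyclins. Cdk4 had 8665 (WT) and 8570 (Cripto KO) raw counts in serum/LIF, and 5732 (WT) and 8052 (Cripto KO) in F/A, or normalized values of 8091, 8306.25, 6040.25 and 8091. F/A WT was the lowest library, as for Ccnd1 and Ccnd3. The WT ratio of F/A to serum/LIF was 0.747 (counts 0.727 to 0.778) and that of Cripto KO 0.974 (0.935 to 1.01). Cripto KO stood at 1.34 times WT in F/A (1.31 to 1.42) and at 1.03 in serum/LIF (1.02 to 1.09).

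Cdk6 had 568 (WT) and 529 (Cripto KO) raw counts in serum/LIF, and 677 (WT) and 574 (Cripto KO) in F/A, or normalized values of 542.25, 544, 691.5 and 564.875. It had the narrowest range of the 10 genes, 1.28-fold from lowest to highest library, a range that 91.3% of all genes reached or passed. F/A WT was its highest library, the opposite of Cdk4, with a ratio to serum/LIF WT of 1.28 (1.21 to 1.52). The level of Cdk4 per median transcript length was 51.2 (WT) and 54.4 (Cripto KO) times that of Cdk6 in serum/LIF, and 28.4 (WT) and 47.1 (Cripto KO) times in F/A. With the longest transcripts it was, in the same order, 27.8, 29.5, 15.4 and 25.5 times, and F/A WT was again the lowest.

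Among the inhibitors, Cdkn2a spanned 3.48-fold from its lowest to its highest library, Cdkn1a 1.85-fold and Cdkn1b 1.37-fold. Cdkn1a (ENSMUSG00000023067, chr17:29227924-29237667, plus strand), the p53 target that codes for p21, had 1134 (WT) and 1164 (Cripto KO) raw counts in serum/LIF, and 1389 (WT) and 1970 (Cripto KO) in F/A. Its normalized values were 1096.75, 1180, 1417.75 and 2034.25. Both F/A libraries were above both serum/LIF libraries, with F/A Cripto KO the highest, and no ratio was past 2-fold. The ratio of F/A to serum/LIF was 1.29 in WT (counts 1.29 to 1.51) and 1.72 in Cripto KO (1.60 to 1.90), and that of Cripto KO to WT in F/A was 1.43 (1.26 to 1.49).

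Cdkn1b (ENSMUSG00000003031, chr6:134870419-134875531, plus strand), which codes for p27, had 1468 (WT) and 1804 (Cripto KO) raw counts in serum/LIF, and 1416 (WT) and 1302 (Cripto KO) in F/A. Its normalized values were 1417.38, 1783, 1448.75 and 1306, with serum/LIF Cripto KO the highest. The ratio of F/A to serum/LIF was 0.732 in Cripto KO (0.681 to 0.816) and 1.02 in WT (1.02 to 1.18), where the log2 change of 0.03 turned to -0.17 once the trend with transcript length was subtracted. The ratio of Cripto KO to WT was 1.26 in serum/LIF (1.22 to 1.40) and 0.901 in F/A (0.810 to 0.977). Per median transcript length, Cdkn1a exceeded Cdkn1b 3.13-fold (WT) and 2.61-fold (Cripto KO) in serum/LIF, and 3.97-fold (WT) and 6.13-fold (Cripto KO) in F/A. With the longest transcripts the same ratios were 1.84, 1.54, 2.34 and 3.61.

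Cdkn2a (ENSMUSG00000044303, chr4:88920377-88940557, minus strand) was the member with the largest difference between genotypes in serum/LIF. It had 227 (WT) and 79 (Cripto KO) raw counts in serum/LIF, and 277 (WT) and 210 (Cripto KO) in F/A, or normalized values of 211.5, 81.75, 284.25 and 209.625. Serum/LIF Cripto KO alone was low, and serum/LIF WT and F/A Cripto KO did not differ beyond counting error. Cripto KO stood at 0.387 of WT in serum/LIF (counts 0.283 to 0.481), a log2 ratio of -1.37, and 1.43% of all genes were lower by as much. In F/A the ratio was 0.737 (0.580 to 0.922), on the same side of 1. From serum/LIF to F/A the gene rose 2.56-fold in Cripto KO (2.03 to 3.72) and stood at 1.34 in WT (1.16 to 1.66). Counts per gene add up the RNA from both start sites printed above, so p16 and Arf cannot be told apart here.

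Counted over the 10 genes, the transitions moved few members past 2-fold, in shares close to or below those of all genes. In the WT transition 1 of 10 was higher (Ccnd2) and 2 were lower (Ccnd3 and Ccne1), where 22.1% of all genes were higher and 20.9% lower. In the Cripto KO transition 2 were higher (Ccnd2 and Cdkn2a) and 1 was lower (Ccne1), against 19.9% and 19.4% of all genes. Cripto KO against WT in F/A gave 1 higher (Ccnd1) and 0 lower, against 4.57% and 5.69%, and in serum/LIF 0 higher and 1 lower (Cdkn2a), against 2.86% and 2.73%. The median log2 values of the 10 genes were 0.19, 0.07, -0.00 and 0.02 in this order, and those of all genes -0.07, -0.07, 0 and 0. With 10 genes these counts do not set the list apart.

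**Figure D3:**
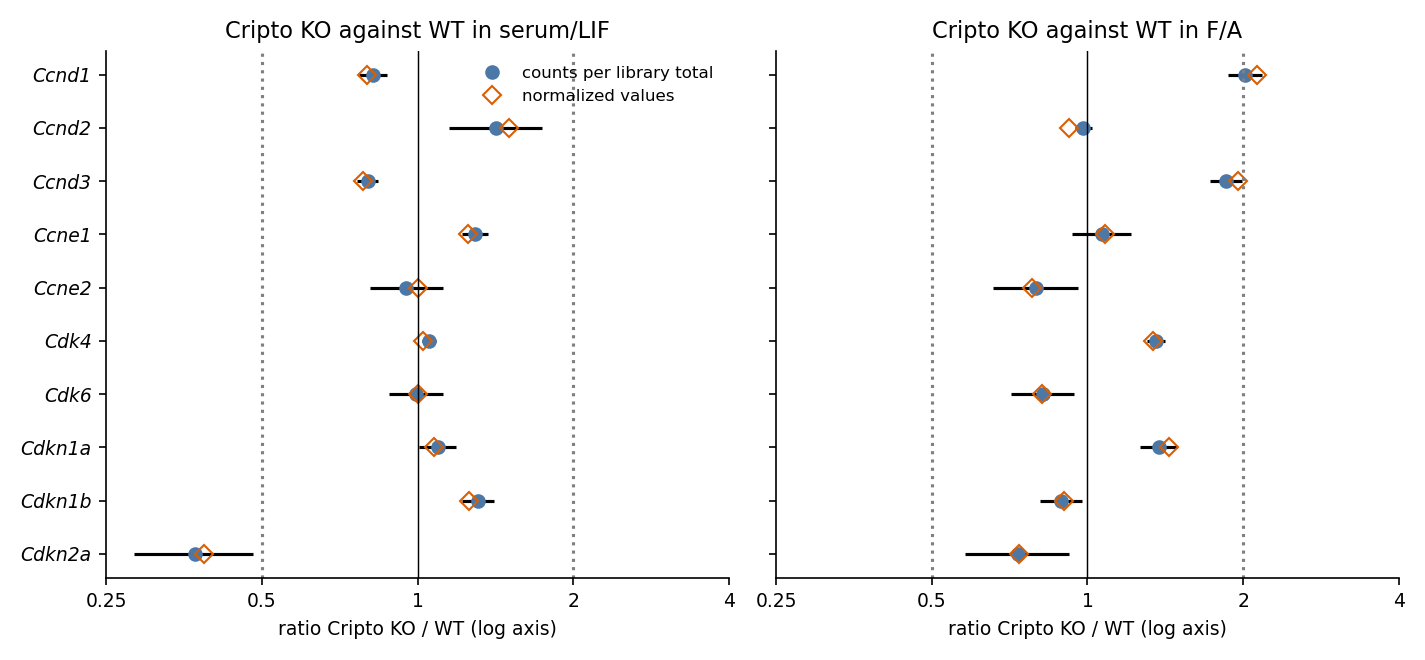
Ratio of Cripto KO to WT (log axis) for the 10 genes in serum/LIF (left) and F/A (right), from counts per library total with exact 95% intervals (filled circles, counting error only) and from normalized values (open diamonds), with dotted lines at 2-fold. Ccnd1 (2.12) and Ccnd3 (1.95) lie farthest right in F/A and Cdkn2a (0.387) farthest left in serum/LIF.

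The design also asks whether the transition differed between the genotypes, which was described by the log2 change in Cripto KO minus that in WT. The difference was at least 1 above 0 for 2 of the 10 genes, Ccnd1 (1.41) and Ccnd3 (1.32), and at least 1 below 0 for none of them, where 7.68% of all genes were that far above and 9.38% that far below. It was 0.93 for Cdkn2a, 0.42 for Cdkn1a, 0.38 for Cdk4, -0.21 for Ccne1, -0.30 for Cdk6, -0.35 for Ccne2, -0.48 for Cdkn1b and -0.71 for Ccnd2. Values at least as far above 0 as those of Ccnd1 and Ccnd3 were held by 4.17% and 4.68% of all genes. The difference of Ccnd1 and Ccnd3 holds the gap in F/A together with the smaller gap of the opposite sign in serum/LIF, since both cyclins were lower in Cripto KO than in WT in serum/LIF (log2 -0.33 and -0.35).

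**Figure D4:**
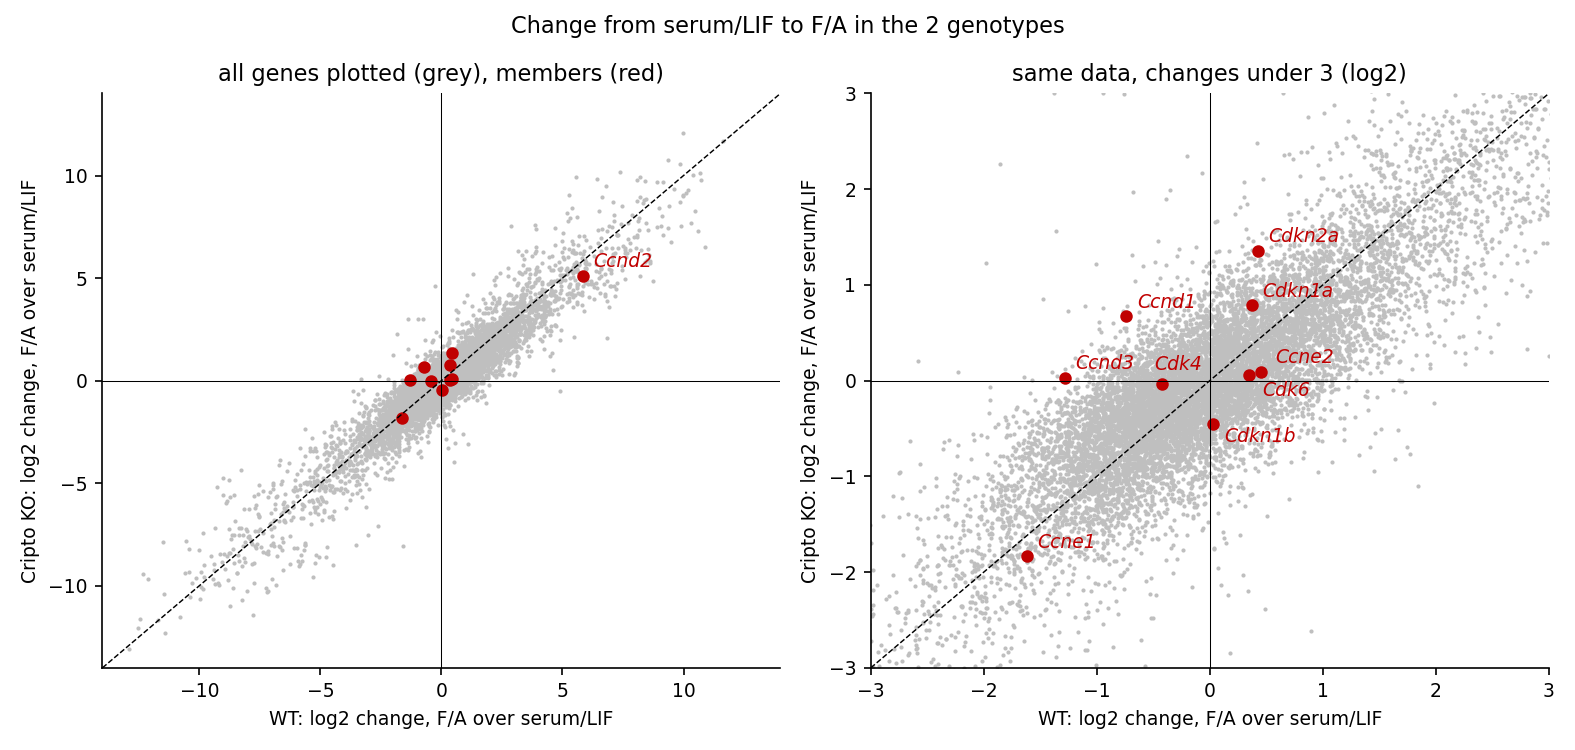
Log2 change between serum/LIF and F/A in WT (horizontal) and in Cripto KO (vertical) for the 12780 genes with a mean normalized value of at least 50 (grey) and the 10 genes described (red), over the whole range (left) and near 0 (right). The dashed line marks equal changes. Ccnd2 lies near the line at 5.83 and 5.13, Ccne1 at -1.62 and -1.83, and Ccnd1 and Ccnd3 lie above it.

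Several of these genes share exon bases with a gene on the opposite strand, and the strand option of the authors' counting was not stated, so reads of such pairs could not be separated with certainty. Ccnd1 shares 21.3% of its exon bases with Oraov1, Cdk4 18.6% with Tspan31, Ccne2 17.4% with Ints8, Ccnd3 15.7% with Bysl and Cdk6 1.61% with Gm17590. Per library total, Bysl stood at 123 (WT) and 114 (Cripto KO) CPM in serum/LIF, and at 73.3 (WT) and 93.9 (Cripto KO) in F/A, so F/A WT was its lowest library as for Ccnd3. Oraov1 stood at 26.3, 25.3, 26.9 and 39.8 CPM in the same order, with F/A Cripto KO the highest as for Ccnd1 and the other libraries close together. Tspan31 stood at 77.6, 78.3, 75.0 and 92.8 CPM, where F/A WT was lowest by a small margin only. The part of these neighbours in the values of Ccnd1, Ccnd3 and Cdk4 was not tested. Ccnd3 also has an annotated copy, Ccnd3-ps, and the fate of reads that match both was not tested.

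Log2 changes also varied with transcript length. At the length of Ccnd2, the longest of the 10 by median transcript, the running median of all genes was 0.52 in the WT transition and 0.18 in that of Cripto KO. After subtracting it Ccnd2 stood at 5.32 and 4.95, and its difference between the genotypes went from -0.71 to -0.35. At the short median length of Ccne1 the running median was -0.43 and -0.19, which left Ccne1 at -1.19 and -1.65. Ccnd1 stayed at -0.74 in WT and stood at 0.74 in Cripto KO, and Ccnd3 at -1.23 and 0.09. The fall of Cdk4 in WT shrank from -0.42 to -0.12, and its log2 ratio of Cripto KO to WT in F/A from 0.42 to 0.26. The trend was taken over median transcript lengths, 924 bases for Cdk4 and 628 for Ccne1, whose longest transcripts have 2053 and 2000. At 2105 bases, the median length of Ccnd1, the running median in WT was 0. The trend over the longest lengths was not computed, so whether these shifts would remain with it was not tested.

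The genes around these regulators were described with 10 lists holding 116 genes, of which 113 passed the filter. Past 2-fold were 20 higher and 30 lower in the WT transition, 18 and 23 in the Cripto KO transition, 4 and 1 in Cripto KO against WT in F/A, and 0 and 1 in serum/LIF. As shares of the 113, these were 17.7% and 26.5%, 15.9% and 20.4%, 3.54% and 0.885%, and 0% and 0.885%, beside 22.1% and 20.9%, 19.9% and 19.4%, 4.57% and 5.69%, and 2.86% and 2.73% of all genes in the same order. The pooled lists were thus close to or below the shares of all genes, apart from somewhat more lower genes in WT under F/A. The transition counts of each list below stand beside the same shares of all genes. These were 22.1% higher and 20.9% lower in WT, and 19.9% and 19.4% in Cripto KO. Each list holds few genes, and none was tested against these shares.

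Of the 15 genes that E2F switches on to replicate DNA, 8 were past 2-fold lower in WT under F/A and 6 in Cripto KO, with none higher, beside 20.9% and 19.4% of all genes, and the medians were -1.01 and -0.80 (all genes -0.07 and -0.07). Mcm3, a subunit of the replicative helicase, had 13922 (WT) and 12488 (Cripto KO) raw counts in serum/LIF, and 3592 (WT) and 4952 (Cripto KO) in F/A, with log2 changes of -1.78 for WT and -1.25 for Cripto KO. Mcm5 of the same complex stood at -1.73 and -1.19. Of 11 genes of proliferation and mitosis, 3 were past 2-fold lower in WT and 4 in Cripto KO, with none higher (medians -0.78 and -0.54). Of 5 cyclins of the later phases that passed the filter, 2 were lower in each genotype and none higher (medians -0.72 and -0.41), among them Ccnf, the substrate-binding subunit of a ubiquitin ligase, at -1.48 and -1.01. Of the E-type cyclins, Ccne1 was lower in the same libraries, whereas Ccne2 was not (ratios of F/A to serum/LIF 1.37 in WT and 1.07 in Cripto KO). The part of E2F in these values was not tested.

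Of the 13 pocket proteins and E2F factors, 3 were lower and 2 higher past 2-fold in each genotype. E2f1 (log2 -1.37 in WT and -1.20 in Cripto KO), E2f2 (-2.38 and -1.72) and the pocket protein gene Rbl2 (-1.55 and -2.05) fell. E2f5 (1.23 and 1.29) and E2f6 (1.11 and 1.55) rose. Counted without a threshold, 6 of the 13 were above 0 and 7 below in WT, and 5 and 8 in Cripto KO. Of the 13 other kinase components, 1 was past 2-fold in WT, Cks2, a small subunit of cyclin-dependent kinases, at -1.17, and 0 in Cripto KO.

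Of the 4 other CDK inhibitors that passed the filter, 2 were higher past 2-fold in each genotype, and 1 was lower in WT and 0 in Cripto KO. Cdkn1c, which codes for p57, had 201 (WT) and 277 (Cripto KO) raw counts in serum/LIF, and 1588 (WT) and 3956 (Cripto KO) in F/A. It rose by 3.11 on the log2 scale in WT and by 3.80 in Cripto KO, and in F/A it was 2.53-fold higher in Cripto KO than in WT (counts 2.26 to 2.58). Cdkn2b, the neighbour of Cdkn2a that codes for p15, had 25, 20, 130 and 58 raw counts in the same order, and in F/A the ratio of Cripto KO to WT was 0.476 (0.278 to 0.650). The neighbouring genes Cdkn2a and Cdkn2b were thus both lower in Cripto KO than in WT in F/A, and in serum/LIF the ratio of Cdkn2b was 0.952 (0.449 to 1.60) beside 0.387 for Cdkn2a.

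Of the 8 genes listed as regulators of the Cdkn2a locus, 4 were higher and 3 lower past 2-fold in each transition. One of the lower genes, Fbxo7 (log2 -1.15 in WT and -1.53 in Cripto KO), is known for its part in the assembly of cyclin D with CDK6 rather than at this locus, and was singled out after its values were seen. The other lower genes were the repressors Tbx3 (log2 -4.79 in WT and -3.11 in Cripto KO), also a naive ESC marker, and Cbx7, a Polycomb subunit (-1.73 and -2.58). Repressors were also among the 4 higher genes, with Tbx2 at 1.92 and 3.31 and Id1 at 1.28 and 1.69, beside Ets2 at 1.40 and 1.40. The remaining higher gene, named beyond the naming limit, was Bmi1, another Polycomb subunit, at 1.09 and 1.16. In F/A the repressors Tbx2 (1.65) and Id1 (1.25) were higher in Cripto KO than in WT past 2-fold, beside 4.57% of all genes, Tbx2 on 61 raw counts in WT and 196 in Cripto KO. In serum/LIF, where Cdkn2a was low in Cripto KO, 0 of the 8 were past 2-fold, beside 2.86% and 2.73% of all genes. Closest to the threshold there were the repressors Id1, higher in Cripto KO (log2 0.84, ratio of counts 1.55 to 1.99), and Tbx3, lower (-0.85, 0.539 to 0.579). Their part in the value of Cdkn2a was not tested.

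Of the 16 genes listed as mitogen inputs to the D-type cyclins, 6 were higher and 6 lower past 2-fold in WT, and 6 and 4 in Cripto KO. The list mixes genes that carry these signals with inhibitors such as Spry2, Spry4, Dusp6 and Axin2. These counts therefore do not measure mitogen input. Myc rose by 2.41 on the log2 scale in WT and by 1.48 in Cripto KO, Jun by 2.20 and 2.46, and the Wnt effector gene Lef1 by 2.14 and 4.07. Among the lower genes, the inhibitor Spry4 stood at -1.69 in WT and -2.30 in Cripto KO. Also past 2-fold lower in both genotypes were Fos (-1.82 and -1.14), Fosl1 (-2.05 and -1.80) and Etv5 (-1.88 and -1.45). Etv4 was so in WT only (-1.38 and -0.42). These genes other than Spry4 were named beyond the naming limit, and Fosl1 had at most 101 raw counts. Lef1 had 209 (WT) and 90 (Cripto KO) raw counts in serum/LIF, and 844 (WT) and 1538 (Cripto KO) in F/A, and was past 2-fold lower in Cripto KO in serum/LIF (-1.05). Egr1, an immediate response gene of ERK signalling, had 2875, 2410, 688 and 1396 raw counts in the same order. Its log2 ratio between the genotypes in F/A lay on the threshold, from 0.97 with CPM to 1.07 with the length trend subtracted (ratio of counts 1.76 to 2.18). F/A WT was its lowest library, and unlike Ccnd1 it fell in both genotypes (log2 -1.97 in WT and -0.77 in Cripto KO).

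Of the 16 genes of p53 and its targets, 2 were higher and 3 lower past 2-fold in WT, and 1 and 1 in Cripto KO. Mdm4, an inhibitor of p53, fell by 1.26 in WT and by 2.23 in Cripto KO on the log2 scale. Trp53, the gene of p53, named beyond the naming limit, stood at -1.04 in WT, past 2-fold lower, and at -0.81 in Cripto KO. The apoptosis gene Bax fell by 1.49 in WT and stood at -0.98 in Cripto KO, and Perp, a gene of desmosomes, rose by 1.28 and 1.24. Of 12 genes for the turnover of cyclins and inhibitors that passed, 4 were higher in WT and 3 in Cripto KO, with none lower, among them Gsk3b (1.94 and 1.23), the kinase that marks cyclin D1 for degradation, and Cryab (2.71 and 3.36), a cofactor of a ubiquitin ligase for cyclin D1.

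**Figure D5:**
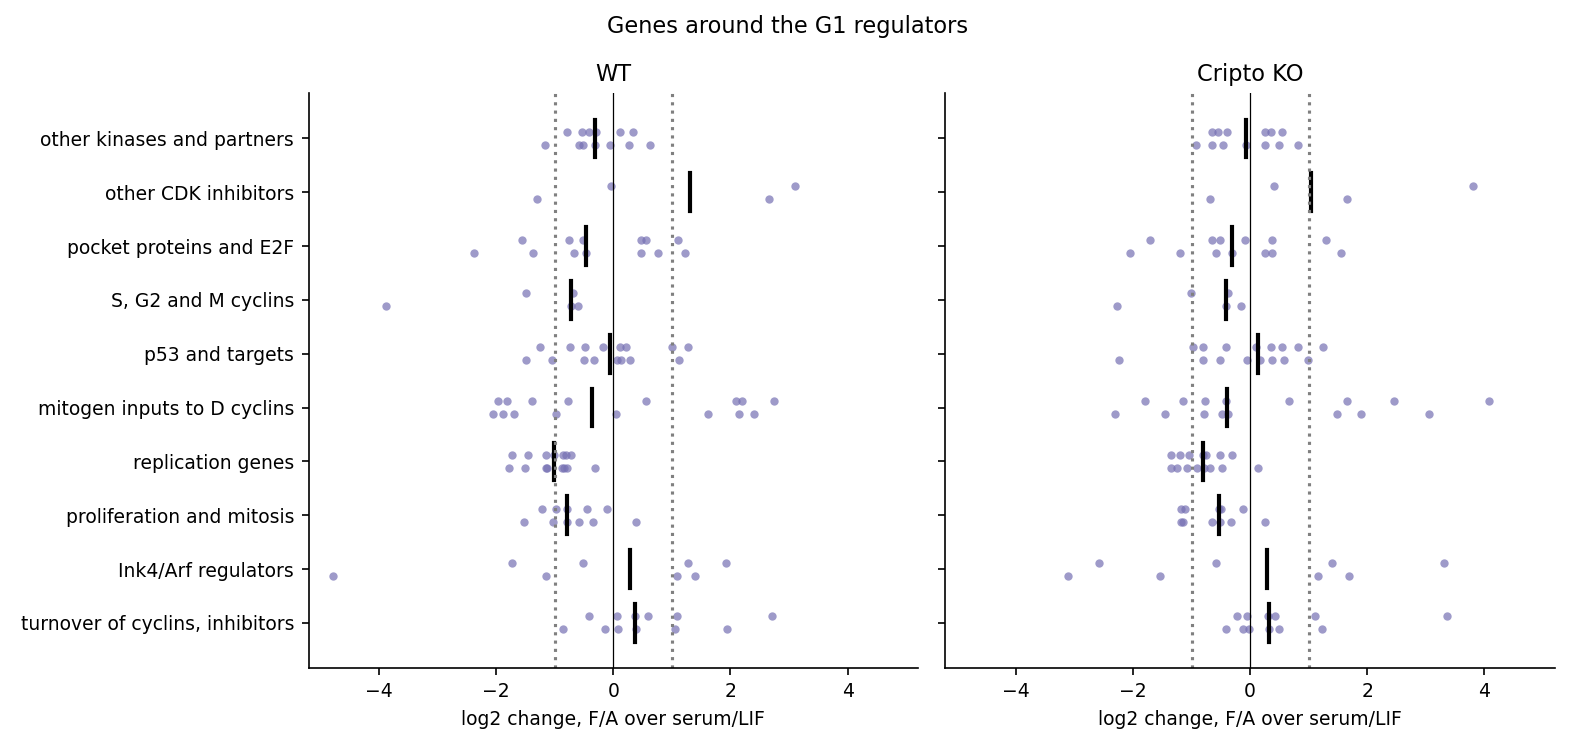
Log2 change between serum/LIF and F/A for the 113 genes of 10 lists that passed the filter, in WT (left) and Cripto KO (right), with 1 point per gene, the median of each list as a black bar and dotted lines at 2-fold. The replication genes have medians of -1.01 and -0.80, while the genes listed as mitogen inputs, inhibitors among them, spread to both sides.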

How the data were processed

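RNA of 4 cultures was sequenced in paired ends. Raw counts of 37620 Ensembl genes were deposited by the authors, from alignments to mm9 (NCBIM37) by TopHat2 2.0.13 and counting by HTSeq 0.6.1p1. They also deposited a signal derived from those counts, the full quantile-normalized values of the 15462 genes kept by a proportion filter. Quantile normalization of the raw table gave all 61848 deposited normalized values within 0.001. Symbols and lengths came from an NCBIM37 annotation, which named 37205 genes.

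Log2 ratios used the normalized values with 0 replaced by 0.5, and 2-fold was the threshold. The 95% intervals are exact Clopper-Pearson intervals of raw count ratios per library total, tested on simulated data. From each list, genes past 2-fold could be named if the higher library had 100 or more raw counts, at most 4 per list and comparison, largest first. Genes named beyond this limit are marked where they appear. The members and lists were chosen with earlier results of these data known. The alternatives were CPM, TMM factors (edgeR 4.0.16), DESeq2 1.42.0 size factors, 5 added to every value, halved F/A Cripto KO counts, a subtracted length trend, other filters and other folds. Of the listed symbols Cdc4, Tfcp2l1, Tfap2c and Sox1 were not matched. Python 3.11.15 with numpy 2.4.6, pandas 2.3.3, scipy 1.17.1 and matplotlib 3.10.9, and R 4.3.3, were used.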

Additional observations from a re-analysis of the deposited data

Results flagged for a closer look

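Ccnd1 went in opposite directions in the genotypes, down from serum/LIF in WT under F/A (log2 -0.74) and up in Cripto KO (0.68), a difference of 1.41. Cdkn1b also had changes of opposite sign, 0.03 in WT and -0.45 in Cripto KO, a difference of -0.48, and the WT change turned to -0.17 once the length trend was subtracted. With 1 library per group neither difference was tested.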

How the results depend on the processing

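No value of the 10 genes that was past 2-fold in a comparison changed direction or fell below 2-fold under the scalings, the added value, the halved counts or the length trend. The difference of Cdkn2a rose above 1 with TMM factors. At 1.5-fold the members past the threshold numbered 5 in the Cripto KO transition and 2 in each comparison between genotypes, and at 3-fold 0 in each of the latter. The share of Ccnd2 among the D-type cyclins in F/A was 57.8% (WT) and 38.5% (Cripto KO) with the longest transcript. As a share of raw counts, not divided by length, it was 2.47% (WT) and 4.25% (Cripto KO) in serum/LIF, and 73.1% and 58.0% in F/A. Over all genes, 6661 were past 2-fold in the WT transition, 6077 in the Cripto KO transition, 1587 between genotypes in F/A and 864 in serum/LIF. Without a filter these were 10710, 10041, 4644 and 3244. With a mean of at least 50 raw counts 763 remained past 2-fold in F/A and 305 in serum/LIF, and with 5 added to every value 403 in serum/LIF. No library could be left out, since each group had 1. No paired analysis was possible because each group had 1 library and no replicate number. Among the listed pathway genes, the ratio of Egr1 between genotypes in F/A fell below 2-fold with CPM (log2 0.97), DESeq2 size factors (0.98) and 5 added, and that of Lef1 passed 2-fold (1.01) with the length trend subtracted. Depth limits Cdkn2a and Ccnd2 in serum/LIF, with as few as 79 and 164 counts, and Ccne2 in F/A Cripto KO, with 161 after halving.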
